A study of Mus musculus with 4 samples.

Results

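Eosinophils are granulocytes that store toxic cationic proteins in specific granules and respond to IL-5 and the eotaxin chemokines. The granule holds major basic protein, eosinophil peroxidase and ribonucleases of the eosinophil-associated (Ear) family, which are transcribed mainly while the cells mature in the marrow. The mature cell is known by the eotaxin receptor CCR3, the IL-5 receptor alpha chain and, in mice, the sialic acid-binding lectin Siglec-F. The 9 genes described here are Prg2, Prg3, Epx, Ear1, Ear2 and Ear6 for granule proteins and Ccr3, Siglecf and Il5ra for surface receptors. They are 9 of 62046 rows in the deposited table, and 8 were found by their symbol. Siglecf is listed there as Siglec5, a RefSeq synonym, and was found by its Entrez number.

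The genes were measured in bulk RNA of bone marrow cells, labelled as bone marrow derived macrophages, after 5 days with M-CSF, the cytokine that drives marrow progenitors towards macrophages. The libraries were 2 from wild type and 2 from GM1082 KO mice, and all 4 had M-CSF. Strain, age, sex and the number of animals are not in the labels, so p-values measure only the spread between these libraries, which may be technical. The genes were chosen because they lay higher in the knockout in this same comparison. Their values by genotype are therefore a description, and no test is given for them.

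The row that matches the targeted gene by name and position (NONMMUG078287.1, RefSeq Arhgap33os, synonym Gm1082) stood at 0.0792 and 0.0198 FPKM in the wild-type libraries against 0.0639 and 0.0624 in those of the knockout, too low to check the genotype labels. FPKM are fragment numbers divided by gene length and library depth. From the steps between low values, a level of 1 FPKM over 1 kilobase rested on 19.1 fragments in each wild-type library, 17.7 in knockout replicate 1 and 18.1 in knockout replicate 2. Knockout replicate 1 stood apart in the summed level of neutrophil granule markers, a sum weighted to the most abundant of them. The summed level of 18 neutrophil granule markers was 3575 and 3297 FPKM in the wild-type libraries, 5069 in knockout replicate 1 and 3291 in knockout replicate 2. The results below are given for each library, and so with and without that replicate. Macrophage markers were present: Csf1r, the M-CSF receptor, was between 104 and 121 FPKM, and Adgre1, the F4/80 antigen, between 139 and 158 FPKM in all 4 libraries. In bulk RNA, more cells of a type and more RNA per cell cannot be told apart.

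The promoters of these genes are shown first as background, in part because the Ear copies resemble each other. The genes were chosen for lying higher, and shared regulation was not tested. RefSeq promoter windows (GRCm38.p6) were matched for 8 of the 9 genes. The 250 bases before the start site are printed for 2 Ear genes, for Epx and for Il5ra, 5′ to 3′ on the strand of the gene. Capitals mark the letters GATA or their reverse complement TATC, the core read by GATA factors, of which GATA1 is required for the eosinophil lineage in mice.
Ear1, chr14:43819640-43819889, minus strand: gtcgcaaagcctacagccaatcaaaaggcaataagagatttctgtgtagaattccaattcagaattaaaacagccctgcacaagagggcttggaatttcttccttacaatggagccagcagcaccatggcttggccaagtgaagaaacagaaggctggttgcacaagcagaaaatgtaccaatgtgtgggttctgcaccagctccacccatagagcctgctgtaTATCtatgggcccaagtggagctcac
Ear2, chr14:44102404-44102653, plus strand: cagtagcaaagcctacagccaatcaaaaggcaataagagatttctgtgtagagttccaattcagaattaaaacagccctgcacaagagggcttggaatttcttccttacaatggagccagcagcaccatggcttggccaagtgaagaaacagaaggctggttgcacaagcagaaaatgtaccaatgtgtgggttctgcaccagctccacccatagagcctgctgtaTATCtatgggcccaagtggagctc
Epx, chr11:87875537-87875786, minus strand: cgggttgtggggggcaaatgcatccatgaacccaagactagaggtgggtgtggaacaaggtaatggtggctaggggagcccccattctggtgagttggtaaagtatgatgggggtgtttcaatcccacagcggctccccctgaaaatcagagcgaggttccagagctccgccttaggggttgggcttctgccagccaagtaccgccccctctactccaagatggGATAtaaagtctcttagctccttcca
Il5ra, chr6:106749038-106749287, minus strand: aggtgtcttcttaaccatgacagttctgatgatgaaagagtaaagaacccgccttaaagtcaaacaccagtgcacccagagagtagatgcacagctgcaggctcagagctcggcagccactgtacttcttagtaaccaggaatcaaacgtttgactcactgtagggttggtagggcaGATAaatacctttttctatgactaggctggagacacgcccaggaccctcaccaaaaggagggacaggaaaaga
Over these windows the Ear1 and Ear2 promoters were 97.6% identical, with 2 mismatches and 4 gapped positions in an alignment of 252. Ear6 was 78.2% identical to Ear1 and 77.7% to Ear2. The letters TATC began 26 bases before the start site in Ear1, 24 in Ear2 and 27 in Ear6, and GATA began 26 bases before it in Epx. The 4-letter core was searched on both strands of the 250 bases before the start site. It was in 8 of the 8 promoters of these genes and in 54.1% of 27025 promoters. The longer GATAA, which contains the core, was in 3 of the 8 (Prg3, Ccr3 and Il5ra) against 23% of all, and TATAAA, which in Epx overlaps the GATA letters, in 1 of the 8 against 13%. A match of letters is a description and not a binding site.

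The 9 genes held between 92 and 102 FPKM in sum in the wild-type libraries, 272 FPKM in knockout replicate 1 and 147 FPKM in knockout replicate 2. All 9 had a higher mean in the knockout, by 1.41-fold to 3.49-fold in FPKM (median 1.95-fold). In 8 of the 9 the groups did not overlap, and Prg3 was the exception. Of all rows tested, 13.2% were separated in that direction, and since the genes were chosen on this contrast nothing is read from the difference. The median of the 9 on the log2(FPKM + 1) scale was 0.84, with -0.01 over all 24535 rows tested, and 0.51 without knockout replicate 1. All 9 passed the filter of 1 FPKM on the mean over the 4 libraries, Il5ra the closest to it at a mean of 1.09 FPKM.

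**Figure D1:**
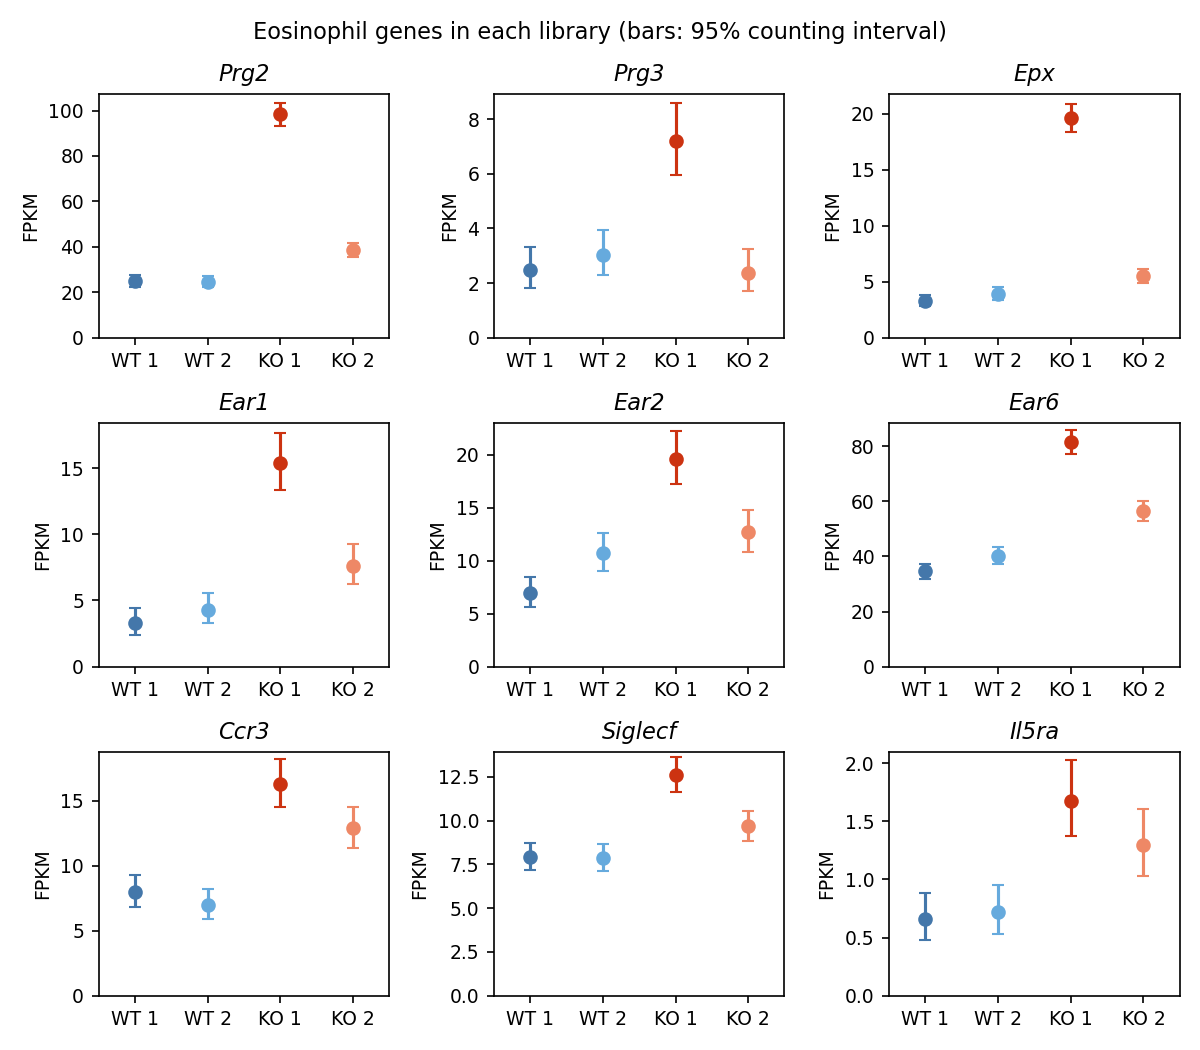
FPKM of each of the 9 genes in the 2 wild-type (WT) and 2 knockout (KO) libraries, each panel with its own axis from 0. Bars are 95% Poisson intervals for the fragments behind each value. Knockout replicate 1 is the highest library for every gene, and knockout replicate 2 lies within the wild-type intervals only for Prg3.

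The fragments behind each value could be recovered, since a gene's 4 values corrected for depth stand in the ratio of whole numbers. The smallest whole numbers that fitted within 0.01 were taken, and a common factor in all 4 would escape this. It worked for 98.1% of 11059 Ensembl rows with a mean from 1 to 30 FPKM, always with an implied gene length within the annotated span. Among the 9 genes the largest deviation from a whole number was 0.00068. Intervals from these counts are exact Poisson or binomial intervals at 95% and cover counting error only.

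Prg2 encodes major basic protein, the core of the eosinophil granule, and lies on chromosome 2 (84980461 to 84983632, plus strand). The wild-type libraries gave 24.9 and 24.4 FPKM, knockout replicate 1 gave 98.2 and knockout replicate 2 gave 38.5. These values rest on 398, 391, 1459 and 585 fragments. The wild-type libraries nearly coincided, whereas knockout replicate 1 was 2.55-fold above knockout replicate 2 (interval 2.32 to 2.82). The knockout mean was 68.4 ± 42.3 FPKM against 24.7 ± 0.322 in wild type (SD, n = 2 each), a ratio of 2.77.

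Prg3 encodes the second major basic protein homologue and follows Prg2 on the same strand (84988215 to 84993886), 4583 bases away. It was at 2.49 and 3.04 FPKM in the wild-type libraries, 7.19 in knockout replicate 1 and 2.38 in knockout replicate 2, from 45, 55, 121 and 41 fragments. The groups overlapped, because knockout replicate 2 was the lowest of the 4 libraries. Without knockout replicate 1 the log2 difference turned from 0.49 to -0.15. The level of Prg2 was 10 and 8.05 times that of Prg3 in wild type, and 13.7 and 16.2 times in the knockout, per kilobase of gene. A noncoding row on the opposite strand of Prg3, NONMMUG023652.2, stood at 2.48 and 1.93 FPKM in the wild-type libraries against 2.52 and 0.869 in those of the knockout. The handling of strand is not given in the sources used here, so reads of this row and of Prg3 cannot be told apart.

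Epx encodes eosinophil peroxidase, which makes hypobromous acid, and lies on chromosome 11 (87864000 to 87875536, minus strand). It was measured at 3.26 and 3.92 FPKM in the wild-type libraries, 19.6 in knockout replicate 1 and 5.48 in knockout replicate 2. The counts were 170, 205, 951 and 272 fragments. Knockout replicate 1 was 3.58-fold above knockout replicate 2 (interval 3.13 to 4.11), the widest gap of the 9 genes, and both lay above wild type. The knockout to wild-type ratio of 3.49 was the highest of the 9, and it was 5.46 for knockout replicate 1 and 1.52 for knockout replicate 2.

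The Ear genes encode secreted ribonucleases of the RNase A superfamily and sit on chromosome 14. Ear1 (43818765 to 43875517, minus strand) was at 3.30 and 4.31 FPKM in the wild-type libraries against 15.4 and 7.62 in those of the knockout, from 46, 60, 199 and 101 fragments. Both knockout libraries were at least 2 times the wild-type mean, at 4.04 and 2.00 times. The Ear1 promoter printed above lies inside this row, so its start site is not the upstream end of the row. The Ear6 promoter window also runs into the Ear6 row. Ear2 (44102654 to 44103534, plus strand) was at 6.93 and 10.7 FPKM in the wild-type libraries against 19.6 and 12.7 in those of the knockout. Its wild-type libraries differed by 1.55-fold (interval 1.19 to 2.02), as much as its knockout libraries (1.54-fold, 1.26 to 1.89), so that knockout replicate 2 was little above wild-type replicate 2. Ear6 (51853699 to 51854643, plus strand) had the highest wild-type level of the 9 genes, 34.6 and 40.3 FPKM, and stood at 81.4 and 56.3 FPKM in the knockout. Its fragments numbered 623, 726, 1363 and 966, and the intervals of both knockout libraries lay above those of both wild-type libraries. Because Ear copies are close in sequence, reads can be assigned to the wrong copy, and the split among the 3 genes is uncertain. Their sum was 44.8 and 55.3 FPKM in the wild-type libraries against 116 and 76.7 in those of the knockout.

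Ccr3 encodes the receptor for eotaxins, which draws eosinophils into tissue, and lies on chromosome 9 (124021972 to 124031689, plus strand). It was at 7.98 and 7.01 FPKM in the wild-type libraries against 16.3 and 12.9 in those of the knockout, from 166, 146, 315 and 255 fragments. Both knockout libraries were above both wild-type libraries beyond counting error, at 2.17 and 1.72 times the wild-type mean. The next gene on the chromosome, Ccr2, the monocyte receptor for CCL2, was at 60.3 and 55.0 FPKM in the wild-type libraries against 31.2 and 48.9 in those of the knockout.

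Siglecf encodes an inhibitory lectin found on eosinophils and also on alveolar macrophages (chromosome 7, 43351341 to 43359531, plus strand). It stood at 7.91 and 7.89 FPKM in the wild-type libraries against 12.6 and 9.68 in those of the knockout, from 421, 420, 623 and 490 fragments. Its knockout to wild-type ratio of 1.41 was the lowest of the 9 genes. Il5ra encodes the ligand-binding chain of the IL-5 receptor (chromosome 6, 106710357 to 106749037, minus strand). It was the lowest of the 9 in level, at 0.66 and 0.718 FPKM in the wild-type libraries against 1.67 and 1.29 in those of the knockout, from 45, 49, 106 and 84 fragments. The ratio of means was 2.15, and the groups were separated.

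**Figure D2:**
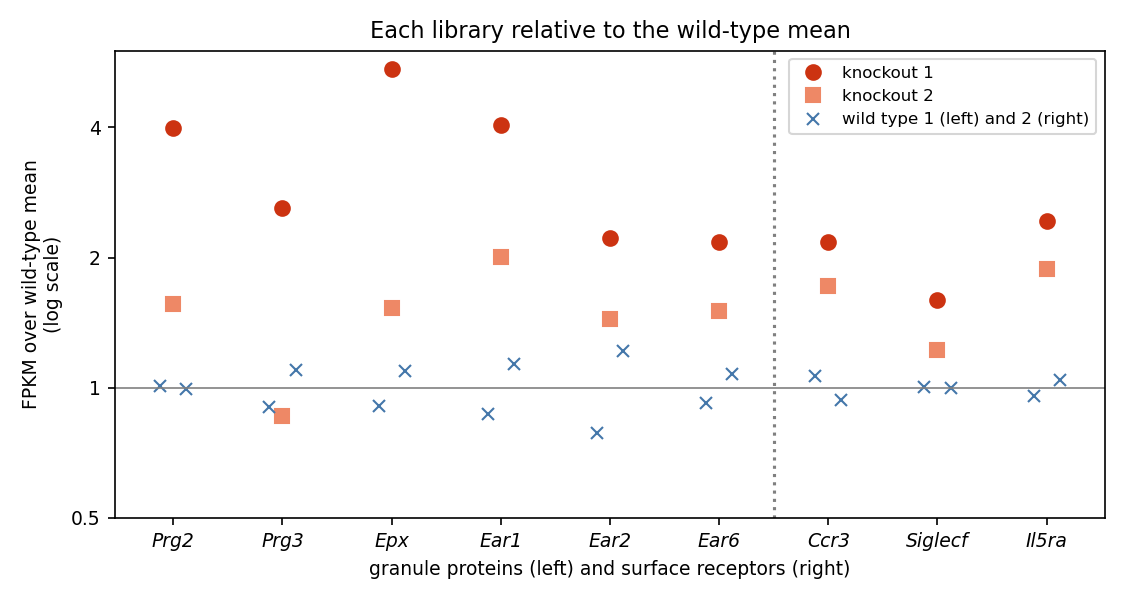
FPKM of each library divided by the wild-type mean of the gene, on a log axis, for 6 granule protein genes and 3 surface receptor genes. Knockout replicate 1 reaches 5.46 for Epx, while knockout replicate 2 stays between 0.862 (Prg3) and 2.00 (Ear1).

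The estimated gap between the knockout libraries was wider for each of the 6 granule genes than for any of the 3 receptor genes. The ratio of knockout replicate 1 to knockout replicate 2 was 2.55 for Prg2, 3.02 for Prg3 (interval 2.11 to 4.42) and 3.58 for Epx. It was 2.02 for Ear1 (1.58 to 2.59), 1.54 for Ear2 and 1.45 for Ear6 (1.33 to 1.57). For the receptors it was 1.27 for Ccr3 (1.07 to 1.5), 1.30 for Siglecf (1.15 to 1.47) and 1.29 for Il5ra (0.961 to 1.74). The intervals of Prg2, Prg3 and Epx thus lay above those of all 3 receptors, and only that of Il5ra reached 1. Those of Ear1, Ear2 and Ear6 overlapped with that of Il5ra. On the log2(FPKM + 1) scale the genes were ranked by this difference among 10516 tested mRNA rows. Epx was 3rd, Prg2 5th, Prg3 7th, Ear1 39th, Ear2 230th and Ear6 344th, and Siglecf, Ccr3 and Il5ra were 1026th, 1204th and 1944th. The added 1 FPKM shrinks differences most at low levels, as for Il5ra. Between the wild-type libraries, 7 of the 9 genes had intervals that held 1, and Ear2 and Ear6 (1.16, interval 1.04 to 1.30) were the exceptions. These comparisons are between libraries and not between conditions.

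**Figure D3:**
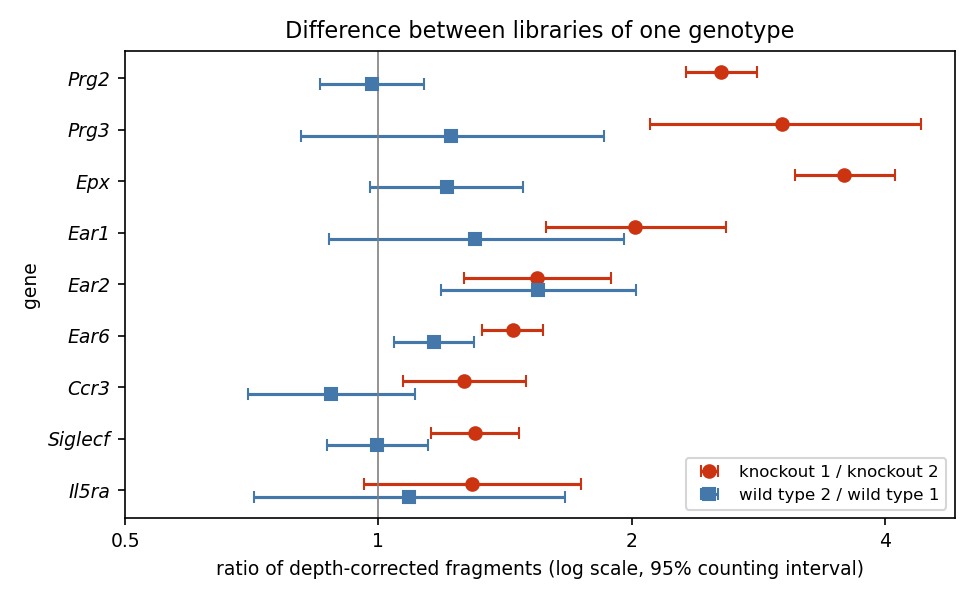
Depth-corrected fragment ratios between the 2 libraries of each genotype, with exact 95% counting intervals, on a log axis. Knockout ratios run from 1.27 (Ccr3) to 3.58 (Epx), and wild-type ratios from 0.879 (Ccr3) to 1.55 (Ear2).

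The order of the levels changed with the library. In wild type Ear6 (37.4 ± 4.02 FPKM) and Prg2 led, followed by Ear2 (8.82 ± 2.68), Siglecf (7.90 ± 0.0172) and Ccr3 (7.5 ± 0.683), which were not separated beyond their spread. Ear1 (3.81 ± 0.709) and Epx (3.59 ± 0.472) were likewise not separated, and Prg3 (2.76 ± 0.389) and Il5ra (0.689 ± 0.0411) came last. In knockout replicate 1, Prg2 passed Ear6, and in knockout replicate 2 it did not. Prg2 made up 27.1% and 23.9% of the summed FPKM of the 9 genes in wild type, 36.1% in knockout replicate 1 and 26.2% in knockout replicate 2. For Epx the shares were 3.54% and 3.84%, then 7.21% and 3.73%. Siglecf moved the other way, from 8.60% and 7.71% in wild type to 4.63% and 6.59%. The make-up of knockout replicate 2 was thus closer to wild type than to knockout replicate 1 for Prg2 and Epx.

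**Figure D4:**
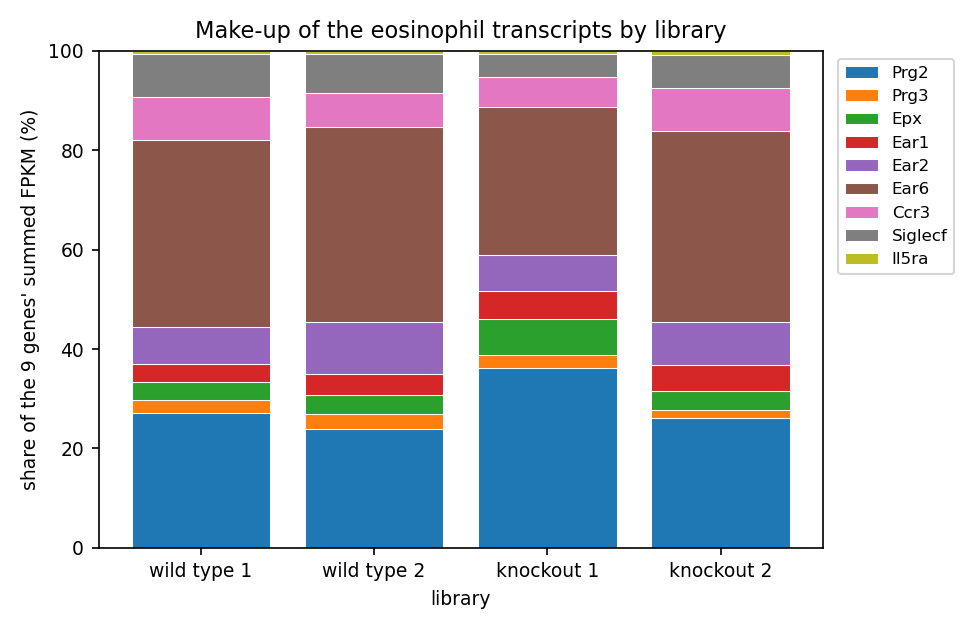
Share of each gene in the summed FPKM of the 9 genes, as stacked bars that reach 100% in each of the 4 libraries. Prg2 takes 36.1% in knockout replicate 1 and between 23.9% and 27.1% in the other libraries.

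Other genes of eosinophil biology were read against the test across the whole table (limma on log2(FPKM + 1), Benjamini-Hochberg adjusted over 24535 rows). The 5 lists held 83 further genes with a row, of which 70 were tested, and 0 passed at an adjusted p of 0.05 in either direction (of all rows 0.0122% passed, 0.00815% higher and 0.00408% lower in the knockout). The smallest adjusted p was 0.426 with limma. At an unadjusted p below 0.05 there were 8 higher and 1 lower, where 5.36% of all rows were at that level in either direction. By mean, 43 lay higher and 27 lower, and the median log2 difference was 0.076. In 17 both knockout libraries lay above wild type and in 6 below, with 13.2% and 17.7% of all rows.

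Of the remaining RNase A family, 5 genes were tested, 1 with a higher and 4 with a lower mean. Rnase2a, a ribonuclease of the same eosinophil family, was at 1.82 and 3.49 FPKM in the wild-type libraries against 1.39 and 1.28 in those of the knockout, so its groups were separated in the opposite direction from Ear1, Ear2 and Ear6 (limma adjusted p = 0.914). Ear14, the only other gene with an Ear symbol matched to a row, was at 0.0553 FPKM in both wild-type libraries. It was listed at 0 in the knockout, under the filter. Rnase4 (13.9 ± 1.41 and 13.2 ± 1.47 FPKM in wild type and knockout), Rnase6 (8.13 ± 0.955 and 7.76 ± 1.18) and the angiogenin gene Ang (2.68 ± 0.217 and 2.46 ± 0.221) overlapped between genotypes.

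In the IL-5, IL-3 and GM-CSF pathway, 10 of 15 tested genes had a higher mean and 5 a lower one, with a median log2 difference of 0.09 (-0.056 without knockout replicate 1 and 0.19 without knockout replicate 2). The most abundant were Csf2rb, the signalling chain shared by the 3 receptors (336 ± 10.4 and 370 ± 6.11 FPKM), and the survival factor Mcl1 (251 ± 25.4 and 247 ± 25.9). They were followed by Csf2rb2, the mouse beta chain specific to IL-3 (184 ± 1.52 and 196 ± 0.612), and the kinase gene Pim1 (160 ± 0.655 and 175 ± 34.3). For Csf2rb, the partner of Il5ra, the log2 difference was 0.14 (SE 0.11, limma adjusted p = 1.00), next to 0.55 for Il5ra on the same scale. For Il5 and Il3 no row was matched by symbol or Entrez number, so no level is given for them.

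Of 15 transcription factors of the lineage, 12 had a higher mean and 3 a lower one (median log2 difference 0.086, with -0.029 and 0.25 without knockout replicates 1 and 2, and 0.0041 without wild-type replicate 1), and 14 were higher in knockout replicate 1 than in knockout replicate 2. The most abundant were Xbp1, needed for eosinophil survival in mice (161 ± 9.62 and 153 ± 6.96 FPKM), Cebpb (123 ± 9.30 and 135 ± 72.2), Id2 (86.5 ± 5.56 and 82.9 ± 5.15) and Spi1, which encodes PU.1 (85.5 ± 3.22 and 87.5 ± 13.6). For Cebpb the knockout libraries were at 186 and 83.7 FPKM, on either side of the wild-type values of 116 and 129. In 3 of the 15 the groups were separated higher and in 0 lower, with 13.2% and 17.7% of all rows. Gata1 and Cebpe were chosen after their values were seen, for their role in the lineage. Gata1 was at 1.72 and 2.11 FPKM in the wild-type libraries against 4.40 and 2.33 in those of the knockout (groups separated, limma adjusted p = 0.992). Cebpe, a factor of granule protein genes, was at 17.9 and 18.6 FPKM in the wild-type libraries against 37.2 and 17.2 in those of the knockout, with overlapping groups. Both had their highest value in knockout replicate 1, as all 9 eosinophil genes did, granule and receptor alike. Being higher there than in knockout replicate 2 was shared by 14 of the 15 factors, so it is not particular to these.

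Of 7 tested ligands of CCR3 and other recruiting factors, 5 had a higher mean. The median log2 difference was 0.50 (0.32 without wild-type replicate 2 and 0.43 without knockout replicate 1). The groups of 4 of these 5 were separated, where 13.2% of all rows were in that direction. With limma 0 passed, and 4 were higher at an unadjusted p below 0.05 (5.36% of all rows in either direction). Ccl5, a CCR3 ligand, was at 8.25 and 8.35 FPKM in the wild-type libraries against 12.8 and 11.5 in those of the knockout (limma adjusted p = 0.642). Ccl2, a monocyte attractant, was at 6.59 and 6.91 FPKM and at 10.5 and 12.9 FPKM (adjusted p = 0.537). The most abundant, Ccl9 (146 ± 1.09 and 144 ± 17.9) and Ccl3 (84.0 ± 21 and 81.9 ± 9.67), overlapped. Ccl24, the eotaxin with a row here, stayed below 0.57 FPKM in every library and was not tested.

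Of 28 other surface and mediator genes, 15 had a higher and 13 a lower mean (median log2 difference 0.044). That median turned to -0.04 without knockout replicate 1, to -0.0096 without wild-type replicate 2 and to -0.007 with quantile normalization, and was 0.12 without wild-type replicate 1. The most abundant were S100a10 (156 ± 17.0 and 159 ± 19.6 FPKM), Alox5ap, which activates 5-lipoxygenase (137 ± 6.67 and 146 ± 29.8), Cd9, a tetraspanin (118 ± 5.43 and 107 ± 3.41, groups separated), and Rab44 (102 ± 11.2 and 120 ± 38.2). Outside the rule for naming genes, Alox15, the lipoxygenase of mouse eosinophils and resident macrophages, had the smallest p of the 70 genes. It was at 18.9 and 18.5 FPKM in the wild-type libraries against 47.9 and 34.4 in those of the knockout, a log2 difference of 1.08 (SE 0.17, limma adjusted p = 0.426). Its knockout libraries both lay above wild type, and the difference did not pass.

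**Figure D5:**
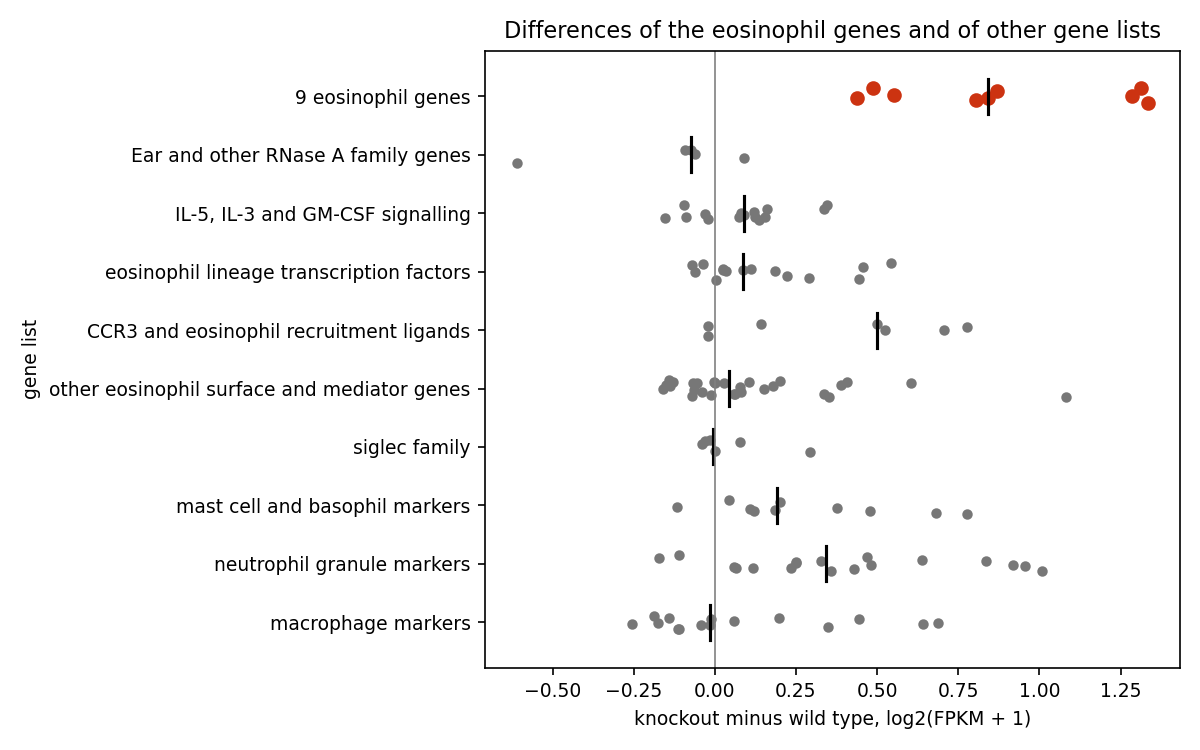
Log2 difference (knockout minus wild type, FPKM + 1) of the 9 eosinophil genes, in red, and of tested genes of the other lists, in grey. Black bars mark the medians. The 9 genes, chosen on this contrast, lie between 0.44 and 1.34, and the medians of the other lists drawn at 0.50 or below. The peroxidase list is not drawn as a row. Its 1 tested gene, Mpo, at 0.92, is drawn among the neutrophil granule markers.

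Markers of other granulocytes were compared by their values. Of 18 neutrophil granule genes, 16 had a higher mean and 2 a lower one (median log2 difference 0.34, with -0.065 and 0.71 without knockout replicates 1 and 2). Of the 18, 16 were higher in knockout replicate 1 than in knockout replicate 2. With limma 0 passed, and 5 were higher at an unadjusted p below 0.05 (5.36% of all rows in either direction). In 6 both knockout libraries lay above wild type and in 1 below, with 13.2% and 17.7% of all rows. Among these 6, named after their values were seen, Elane was at 57.4 and 66.3 FPKM in wild type against 180 and 87.1 in the knockout. Ctsg was at 35.4 and 41.4 against 82.9 and 68.3 FPKM, and Ms4a3 at 22.5 and 25.3 against 35.5 and 40.1 FPKM. Ngp, a neutrophil granule protein, was at 773 and 755 FPKM in the wild-type libraries against 1530 and 732 in those of the knockout, and Lcn2, which binds siderophores, at 203 and 170 and at 295 and 166 FPKM. Mmp8, neutrophil collagenase (627 ± 55.0 and 652 ± 22.8 FPKM), and Chil3, a chitinase-like protein (849 ± 72.5 and 790 ± 118), overlapped. Mpo, the neutrophil relative of Epx, was at 18.8 and 25.6 FPKM in the wild-type libraries against 49.8 and 36.0 in those of the knockout (limma adjusted p = 0.573). Of 10 tested mast cell and basophil markers, 9 had a higher mean (median log2 difference 0.19, from 0.02 without knockout replicate 1 to 0.43 without knockout replicate 2). With limma 0 passed, and 3 were higher at an unadjusted p below 0.05, a level held by 5.36% of all rows in either direction. The basophil proteases Prss34 (39.4 ± 5.19 and 43.8 ± 16.2 FPKM) and Mcpt8 (22.3 ± 3.89 and 29.9 ± 10.4) overlapped, as did Gata2 (10.1 ± 1.46 and 11.6 ± 2.33), while Cpa3, a carboxypeptidase, was at 6.71 and 10.2 FPKM and at 12.5 and 11.4 FPKM. The summed level of the 14 markers with a row was 95.5 and 115 FPKM in the wild-type libraries against 151 and 104 in those of the knockout, and none was at 0 in all libraries. Of 15 tested macrophage markers, 6 had a higher and 9 a lower mean (median log2 difference -0.013, and 0.14 without wild-type replicate 1). In 4 the groups were separated higher and in 2 lower, with 13.2% and 17.7% of all rows. With limma 0 passed, and 3 were higher at an unadjusted p below 0.05 (5.36% of all rows in either direction). These 3 were C1qa, C1qb and C1qc, the chains of complement C1q, named after their values were seen, with log2 differences of 0.64, 0.44 and 0.69. Of 6 other sialic acid-binding lectins tested, 2 had a higher and 4 a lower mean, and 0 passed with limma or had an unadjusted p below 0.05. Their median log2 difference was -0.0067, from -0.14 without knockout replicate 1 to 0.12 without knockout replicate 2, and above 0 without either wild-type library or with median-of-ratios scaling. The most abundant, Cd33 (80.9 ± 6.44 and 79.5 ± 10.8 FPKM), Siglece (45.9 ± 3.55 and 44.9 ± 7.05), Siglecg (12.7 ± 2.20 and 12.7 ± 1.65) and Siglech (9.61 ± 1.31 and 10.2 ± 1.44), overlapped between genotypes. Cd22, a B cell lectin named after its values were seen, gave 6.43 and 8.26 FPKM in the wild-type libraries against 9.94 and 8.44 in those of the knockout, so its groups were separated as those of Siglecf were. Siglec15 and Mag were separated in the same direction but lay under the filter of 1 FPKM. The part of these other cell types in the levels of the 9 genes was not tested.

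The rows most like the mean profile of the 9 genes over the 4 libraries, by Euclidean distance of centred log2(FPKM + 1), were Prtn3, Stfa2, Ighv1-19, Gm24497 and Cyp11a1. Prtn3, the neutrophil primary granule protease, was the nearest (distance 0.063), at 24.3 and 27.3 FPKM in the wild-type libraries against 60.6 and 35.9 in those of the knockout. Stfa2, a stefin, was at 14.3 and 17.0 FPKM and at 42.3 and 22.1 FPKM, and Cyp11a1, a steroid-forming enzyme, at 6.25 and 7.26 FPKM and at 15.3 and 9.38 FPKM. With 4 libraries such a likeness is a description, and the choice of rows depended on single libraries. None of the 5 rows was again among the nearest without wild-type replicate 1, 1 was without knockout replicate 1, and 2 were without knockout replicate 2 or with a pseudocount of 0.1 FPKM.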

How the data were processed

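Libraries were grouped by the genotype and replicate number in their titles. The deposited table holds FPKM values made by the authors. The submitters' processing notes name Bowtie 0.12.2 and mm9. No source used here gives the gene counter, strand or multi-mapping settings. Row positions were compared with RefSeq GRCm38.p6: of 18848 rows sharing an Entrez number, 99.9% lay on the same chromosome and 87.3% started within 1 kb, so coordinates are read as GRCm38. Depth came from the steps of low values in noncoding rows spanning 1000 to 3000 bases (82.3% to 82.4% lay within 0.05 of a whole fragment). limma 3.58.1 (R 4.3.3) was run on log2(FPKM + 1) for the 24535 rows whose mean reached 1 FPKM, with trended eBayes (4.04 prior degrees of freedom), no replicate block and Benjamini-Hochberg adjustment. The procedure was tested on simulated data. No count model was used.

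The 9 genes and the lists were chosen with earlier results of these data known. Lists were matched by symbol, then by Entrez number. Named from each list were genes that passed, its 4 most abundant and every Ear row, and from the whole table the 5 rows nearest in profile. Gata1, Cebpe, Alox15, Ccl24, Mpo as a neutrophil marker, Elane, Ctsg, Ms4a3, C1qa, C1qb, C1qc, Cd22, Siglec15, Mag, the flanking genes and those ranked between the knockout libraries fall outside this rule and were named after their values were seen. Alternatives were a pseudocount of 0.1 FPKM, filters of 0.1 FPKM, 5 FPKM and none, median-of-ratios scaling, quantile normalization, untrended or robust eBayes, the replicate block and each library left out. Values by library were computed in Python 3.11.15.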

Additional observations from a re-analysis of the deposited data

How the results depend on the processing

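The 9 genes lay higher in the knockout in all 27 values under the other pseudocount and both scalings. With a library left out they did so in 35 of 36 values, and the exception was Prg3 without knockout replicate 1 (-0.15). These values reuse the same libraries, and the genes were chosen on this contrast, so nothing is read from the tally. With a pseudocount of 0.1 FPKM the log2 difference of Il5ra moved from 0.55 to 1.00. Median-of-ratios scaling and quantile normalization moved the median of all rows by 0.0087 and 0.0054 on the log2 scale. With a library left out, the median log2 difference of the 9 genes ran from 0.51 (without knockout replicate 1) to 1.10 (without knockout replicate 2). The count of eosinophil pathway genes that passed was 0 under every alternative run. Rows that passed between genotypes numbered 3, and 0 with a filter of 0.1 FPKM or with none. The count ran from 0 to 21 with a library left out; it was 0 without either knockout library, and rose to 12 when wild-type replicate 1 was left out and to 21 when replicate 2 was. The causes were not tested. With the replicate number as a block, 6 rows passed, none of them among the pathway genes. Deviations of same-numbered libraries from their group means correlated at 0.051 over all rows tested and at 0.11 over mRNA rows. The labels do not tie libraries by number, so whether the numbers pair them is not known.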

Other observations

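The 10 tested mRNA rows with the largest excess of knockout replicate 1 over knockout replicate 2 on the log2(FPKM + 1) scale held 3 of the eosinophil granule genes, Epx, Prg2 and Prg3. The others were Capn11, Camp, Lsm5, Lrg1, Slc2a3, Hist1h2ap and Nos2. They were named by that rank after the values were seen. Camp, the cathelicidin of neutrophil granules, gave 36.8 and 42.0 FPKM in the wild-type libraries, 104 in knockout replicate 1 and 29.0 in knockout replicate 2. Lrg1, a glycoprotein of neutrophil granules, was at 28.7 and 34.0 FPKM and at 92.9 and 37.1 FPKM. Capn11, a calpain gene, was at 0.194 and 0.0968 FPKM and at 5.52 and 0.773 FPKM.

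Rows beside the eosinophil genes on the chromosome had other patterns in most cases. Slc43a3, the nearest gene before Prg2, gave 13.7 and 15.8 FPKM in the wild-type libraries against 13.5 and 13.8 in those of the knockout. P2rx3, after Prg3, gave 3.35 and 1.90 against 1.64 and 1.09 FPKM. Mks1, 197 bases from Epx, gave 1.44 and 1.93 against 1.47 and 1.29 FPKM. On the other side of Epx, Dynll2 gave 1.53 and 2.59 against 2.70 and 2.66 FPKM, and Gm8113, beside Ear1, gave 0.848 and 1.46 against 1.66 and 1.74 FPKM. In Dynll2 and Gm8113, as in the eosinophil genes other than Prg3, the groups were separated with the knockout higher. In P2rx3, and in Ccr2 beside Ccr3, they were separated with the knockout lower. Of all rows tested, 13.2% were separated higher and 17.7% lower. Trnt1, 20083 bases from Il5ra, gave 9.98 and 10.7 against 8.96 and 11.4 FPKM.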
